A study of Drosophila melanogaster with 27 samples.

Results

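The messenger RNAs of 10 Drosophila melanogaster genes that time mitosis were followed in whole embryos: the cyclin genes CycA, CycB and CycB3, the kinase gene Cdk1, the Cdc25 phosphatase genes stg (string) and twe (twine), their antagonists trbl (tribbles) and frs (fruhstart), and the activators of the anaphase-promoting complex (APC/C), fzy (fizzy) and fzr (fizzy-related). The genes were chosen by symbol, with earlier results of these data known, and make up 10 of the 17714 genes in the deposited matrices. All 10 passed the filter on low counts in both sets of libraries. The data are poly(A)-selected RNA-seq of 27 libraries in 9 groups of 3. In 5 groups, labelled cycle 9, embryos were sorted by hand on DAPI staining, at nuclear cycle 9 to 10 by the paper's methods. The paper places the onset of zygotic transcription at cycle 10. These groups were wild type (w, the w1118 strain) and embryos of mothers in which a maternal alpha-tubulin GAL4-VP16 driver expressed Upf1, Nos, the chimera Upf1-Nos or the chimera Upf1-NosL7. Upf1-NosL7 carries a deletion in the C-terminal tail of Nos, and each transgene ends in the nos 3′ UTR. No driver or transgene is described for w. Against w, the expressed protein therefore cannot be told apart from the driver and strain background. The nuclei of Upf1-Nos embryos were abnormally distributed, so that their age could be judged only approximately. The other 4 groups were unsorted collections of 0–1 h and 2–3 h embryos from w mothers and from nos mothers (nosBN over the deficiency Df(3R)Exel6183), which lack Nos. The labels do not say whether replicates came from separate crosses or collections, so p-values measure only the spread between these samples.

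Early fly embryos divide as a syncytium, in rapid rounds of S phase and mitosis without gap phases, on protein and mRNA stored in the egg. Cdk1 with cyclin A, B or B3 drives entry into mitosis, and Cdc25 phosphatases (String and Twine) switch Cdk1 on by removing inhibitory phosphates. Tribbles promotes the loss of String protein, and Fruhstart binds cyclins and keeps them from their substrates. Both are known for holding back mitosis around gastrulation. Fizzy (the fly Cdc20) and Fizzy-related (the fly Cdh1) hand cyclins to the APC/C for destruction, the former in mitosis and the latter after it. At the maternal-to-zygotic transition (MZT), stored mRNAs are cleared, the zygotic genome is switched on and the cycle slows. Nanos (Nos) is an RNA-binding partner of Pumilio that represses maternal mRNAs, among them CycB mRNA in the germ cell precursors. Upf1 is a helicase of nonsense-mediated mRNA decay.

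Libraries held 14022867 to 22002022 assigned reads in the sorted set and 15253023 to 21661077 in the unsorted set. In 0–1 h embryos of nos mothers nos mRNA was at 0.472 normalised CPM (counts scaled to a common library size), against 598 in w. Upf1 mRNA was at 573 ± 181 normalised CPM (SD, n = 3) in Upf1 embryos and at 47.0 ± 14.3 in w. In Nos, Upf1-Nos and Upf1-NosL7 embryos neither mRNA was above w by the test, so counts of these genes give no check of those labels. A list of 14 zygotic genes summed to 93.4–211 normalised CPM in the sorted libraries, 403–674 at 0–1 h and 2784–5716 at 2–3 h. Markers of late embryos (elav, repo, Mhc, Act57B, Hml and Tm2) summed to at most 0.988 normalised CPM in the sorted libraries and to 17.9–375 in the unsorted ones, and follicle cell markers (Cp36, Cp38, Vm26Aa and Yp1) to at most 0.276 in any library. The zygotic genes were Kr, gt, kni, sna, twi, eve, ftz, run, slam, nullo, bnk, Sry-alpha, sog and zen.

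In wild type at cycle 9, CycB mRNA was the most abundant of the 10 at 1621 ± 583 TPM (SD, n = 3), a measure scaled to the library that allows for transcript length. CycA followed at 761 ± 329 TPM and Cdk1 at 547 ± 65.1 TPM. CycB3 (201 ± 88.1 TPM), stg (188 ± 38.7 TPM), twe (181 ± 40.9 TPM) and fzy (139 ± 55.9 TPM) formed a middle group whose replicate ranges overlapped, so their order was not resolved. The least abundant were fzr at 54.2 ± 9.36 TPM, trbl at 22.5 ± 1.14 TPM and frs at 10.7 ± 6.44 TPM. The wild-type replicates differed most in frs, at 3.64–16.2 TPM, followed by the 3 cyclin mRNAs and fzy. The highest CycA value was 2.34 times the lowest, a wider spread than that of 96.8% of 5577 genes with at least 10 TPM in each of the 3 libraries, and the ratio was 2.32 for CycB3, 2.25 for fzy and 2.02 for CycB. Replicate 2 was the lowest and replicate 3 the highest for all 4 of these genes and for frs. Replicate 3 also stood apart across the counted genes, so the spread is not particular to these mRNAs. Chi-square values per degree of freedom were 130.5 and 132.2 against replicates 1 and 2, and 26.4 between those. For the other genes the ratio was 1.11–1.45. Tests of the cyclin and fzy mRNAs against wild type at cycle 9 therefore carry larger errors than those of Cdk1, twe or trbl.

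Upf1-Nos embryos were compared with wild type to ask which mRNAs are lost when Nos brings a decay factor to them. In Upf1-Nos embryos fzr, stg and trbl mRNAs fell against wild type, whereas CycB, CycA and Cdk1 mRNAs did not pass the test. Called genes changed by more than 2-fold with an adjusted p under 0.05 (edgeR quasi-likelihood test, Benjamini-Hochberg adjustment over all genes tested). Of the 10 genes, 3 were called lower and 0 higher (0 also by DESeq2, and 3 at an unadjusted p under 0.05), and among all 6581 genes tested 39.3% were called lower and 1.05% higher, so the count alone does not set the 10 apart. Their median log2 change was -0.14, and that of all genes was -0.51. Whole embryos were measured together, so a change in part of the embryos and a change in all of them cannot be told apart. With poly(A) selection neither can fewer molecules and shorter tails.

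Among the activators of the APC/C, fzr (FBgn0262699, chromosome X, 4667290 to 4679537, minus strand, BDGP6.54 annotation) was at 110.0, 119 and 128 normalised CPM in wild-type replicates 1, 2 and 3 and at 29.6, 16.7 and 26.9 in Upf1-Nos. All 3 Upf1-Nos libraries were thus far below all wild-type libraries, a 4.88-fold decrease (log2 change -2.29, SE 0.17, adjusted p = 7.2e-09). Its counterpart fzy (FBgn0001086, chromosome 2L, 16310956 to 16313097, plus strand) stood at 413, 290.4 and 356 normalised CPM in Upf1-Nos and at 229.6, 154 and 294 in wild type. The ranges just overlapped, and the log2 difference of 0.65 (SE 0.18, adjusted p = 0.0063) was under the 2-fold threshold. The exons of fzy share 62 bp with those of cact on the opposite strand, and whether reads were counted by strand is not given in the sources used here.

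Of the Cdc25 genes, stg (FBgn0003525, chromosome 3R, 29251826 to 29255800, minus strand) was at 385, 392 and 462 normalised CPM in wild type and at 157, 100.5 and 137 in Upf1-Nos, with no overlap. This was a 3.14-fold decrease (log2 change -1.65, SE 0.15, adjusted p = 1.1e-07). The other Cdc25 gene, twe (FBgn0002673, chromosome 2L, 16259414 to 16261877, minus strand), was not lower in any Upf1-Nos library. It stood at 258, 255 and 315 normalised CPM in wild type and at 380.1, 325 and 342 in Upf1-Nos (log2 difference 0.34, SE 0.10, adjusted p = 0.0092, under the 2-fold threshold). The exons of twe share 98 bp with those of EndoGI on the opposite strand.

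The antagonists of Cdc25 and cyclins were scarce at this stage. For trbl (FBgn0028978, chromosome 3L, 20396288 to 20401609, minus strand) the wild-type libraries held 45.5, 47.5 and 42.0 normalised CPM and the Upf1-Nos libraries 18.9, 13.2 and 17.7. The groups did not overlap, and trbl fell 2.71-fold (log2 change -1.44, SE 0.12, adjusted p = 4.9e-08). For frs (FBgn0004052, chromosome 3L, 15509061 to 15509513, plus strand, also called Z600) the expected counts were only 54, 15 and 79 in wild type and 30, 21 and 23 in Upf1-Nos. These ranges overlapped, and frs did not pass the test (log2 difference -1.02, SE 0.47, adjusted p = 0.067). Without wild-type replicate 2, the lowest of the wild-type libraries for frs, the difference was -1.43 and passed the test, as it did at -1.03 when no filter on low counts was used (adjusted p = 0.033). The exons of frs share 138 bp with those of gdl and gdl-ORF39 on the same strand. In TPM, which lacks the correction of Upf1-Nos libraries described below, gdl stood at 56.2–69.6 in wild type and 70.5–79.7 in Upf1-Nos. On the same scale frs was at 3.64–16.2 and 5.17–8.23.

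**Figure D1:**
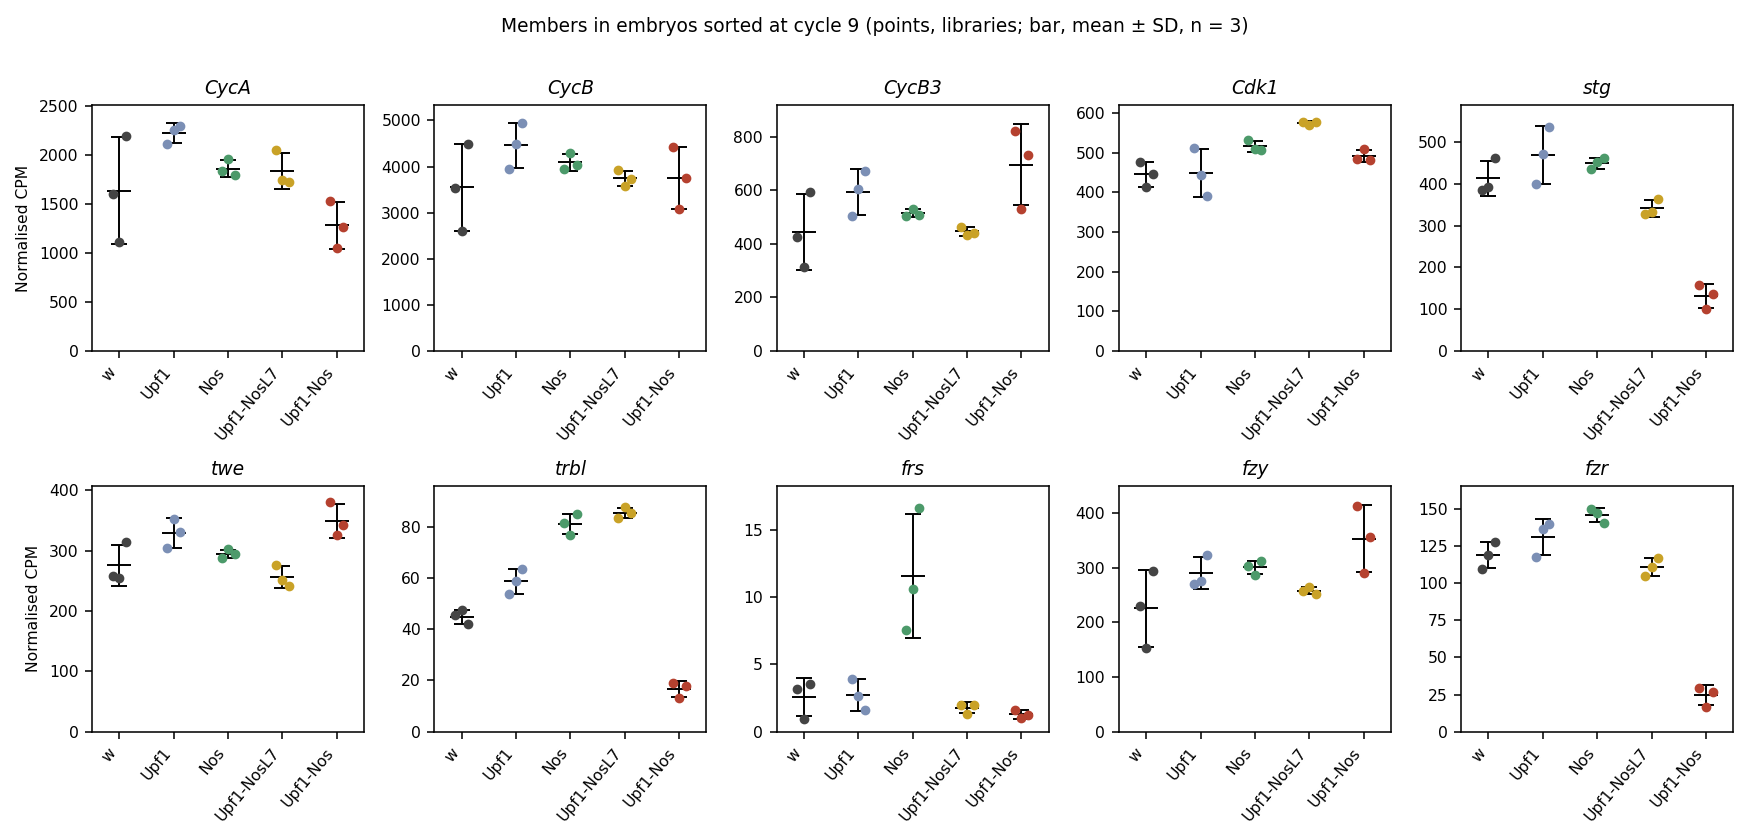
Normalised CPM (y axes, each from 0) of the 10 genes in embryos sorted at cycle 9, by genotype (x axes), with 1 point per library and bars for the mean and SD of 3 libraries. The Upf1-Nos points of stg, trbl and fzr lie below those of every other genotype, frs is highest in Nos, and the wild-type points of CycA, CycB, CycB3 and fzy spread more widely than those of Cdk1, stg, twe, trbl and fzr.

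The cyclin and kinase mRNAs differed less. CycB (FBgn0000405, chromosome 2R, 22803521 to 22806948, minus strand) was at 3543, 2609 and 4500.2 normalised CPM in wild type and at 4421, 3070.0 and 3761 in Upf1-Nos, so that the wild-type range enclosed the other. The log2 difference was 0.08 (95% interval -0.25 to 0.41, adjusted p = 0.70). Under the scaling used here this interval, a normal approximation, does not reach a 2-fold change in either direction. CycA (FBgn0000404, chromosome 3L, 11826719 to 11833578, minus strand) was at 1606, 1109 and 2201 normalised CPM in wild type and at 1534, 1053 and 1262 in Upf1-Nos (log2 difference -0.35, SE 0.19, adjusted p = 0.12). Cdk1 (FBgn0004106, chromosome 2L, 10384739 to 10386262, minus strand) was at 477, 414 and 446 normalised CPM against 484, 509 and 481 in Upf1-Nos, a log2 difference of 0.14 (SE 0.10, adjusted p = 0.21). Only CycB3 (FBgn0015625, chromosome 3R, 24867934 to 24870816, minus strand) passed the adjusted p among them, at 426, 312 and 592 normalised CPM in wild type and 823, 529 and 733 in Upf1-Nos. Its log2 difference of 0.65 (SE 0.20, adjusted p = 0.0099) was under the 2-fold threshold and its ranges overlapped.

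Upf1-Nos values rest on correction factors, taken as by the authors from 20 abundant mRNAs that were assumed not to change. Without them the median of all genes was higher by 0.57 on the log2 scale, and the calls among all genes split into 31.5% lower and 9.83% higher. fzr (-1.74) and stg (-1.09) were then still called lower, trbl (-0.88) was no longer past the 2-fold threshold, and CycB3 (1.20) and fzy (1.21) were called higher. The signs of these 5 values were the same under both scalings, while that of CycA turned from -0.35 to 0.21. CycB (0.64), Cdk1 (0.72) and twe (0.91) were also higher without the factors, under the 2-fold threshold. That these mRNAs changed little thus depends on the scaling.

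In Upf1-NosL7 embryos, whose chimera lacks part of the Nos tail, none of the 3 genes was called lower. stg was at 327, 333 and 364 normalised CPM, below every wild-type library (log2 difference -0.28, SE 0.15, adjusted p = 0.20), and fzr at 105, 111 and 117, which overlapped with wild type (-0.10, SE 0.16, adjusted p = 0.68). Against wild type 0 of the 10 genes were called by edgeR, 2 of them with an unadjusted p under 0.05, where 2.74% of all genes were called in either direction. Those 2 were trbl, at 83.6, 87.6 and 85.4 normalised CPM in all 3 Upf1-NosL7 libraries above wild type (1.90-fold, log2 difference 0.93, SE 0.12, adjusted p = 8.9e-05), and Cdk1 at 578, 569.7 and 579 (log2 difference 0.37, SE 0.10, adjusted p = 0.020). When only these groups were fitted, trbl reached 1.01 and was called. All libraries of Upf1 (1.31-fold) and Nos (1.80-fold) were also above wild type for trbl, and the part of driver or strain was not tested. In the direct comparison of the chimeras, in which 37.8% of all genes were lower in Upf1-Nos (29.4% without the correction factors), the same 3 genes were called lower. They were trbl (5.15-fold, log2 change -2.37, SE 0.13, adjusted p = 2.4e-10), fzr (4.56-fold, log2 change -2.19, SE 0.17, adjusted p = 1.3e-08) and stg (2.59-fold, log2 change -1.37, SE 0.15, adjusted p = 8.8e-07). The decrease of stg between the chimeras was -0.82 and not called without the correction factors, those of trbl (-1.80) and fzr (-1.64) were, and CycB3 (1.20), fzy (1.01) and twe (1.02) were then called higher. With the correction factors CycB did not differ between the chimeras by the test (log2 difference 0.00, 95% interval -0.33 to 0.33). Without them its difference was 0.56, under the 2-fold threshold.

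With Nos or Upf1 alone, most of these mRNAs overlapped with wild type, but all 10 log2 values were above 0 in both. Their median was 0.29 in Upf1 and 0.21 in Nos, where those of all genes were 0.06 and 0.07. Both comparisons share the same wild-type libraries. In Nos 4 of the 10 had an unadjusted p under 0.05 (Cdk1, trbl, frs and fzy). Cdk1 (0.21, adjusted p = 0.14) and fzr (0.30, adjusted p = 0.20) were above all wild-type libraries in Nos, and fzy (0.41, adjusted p = 0.13) overlapped. In Nos embryos 1 of the 10 was called, in the direction in which 2.73% of all genes were higher. This was frs, at 7.54, 10.6 and 16.6 normalised CPM in Nos and 3.19, 0.937 and 3.51 in wild type, with no overlap (4.46-fold higher, log2 change 2.16, SE 0.41, adjusted p = 0.0020). These values rest on 145, 222 and 302 expected counts in Nos. The sum of the 14 zygotic genes was 150.4, 171 and 211 normalised CPM in the same Nos libraries and 133, 106 and 171 in wild type. Of the 6 zygotic genes tested, 2 were called higher in Nos, Sry-alpha (log2 change 1.38) and zen (1.21), and the part of embryo age in the frs result was not tested. The gdl mRNA that shares exons with frs was at 73.8–76.7 TPM in Nos and 56.2–69.6 TPM in wild type. The other antagonist, trbl, was at 81.6, 76.9 and 85.0 normalised CPM in Nos, above all wild-type libraries but under the 2-fold threshold (1.80-fold, log2 difference 0.85, SE 0.12, adjusted p = 0.00014). In Upf1 embryos 0 of the 10 were called, 3 had an unadjusted p under 0.05 (CycA, twe and trbl), and none had an adjusted p under 0.05, while 4.03% of all genes were called in either direction. DESeq2 also called 0 of the 10 in Upf1 and 0 in Upf1-NosL7. The highest of the Upf1 values was that of CycA, at 2118, 2263 and 2304 normalised CPM (log2 difference 0.44, SE 0.19, adjusted p = 0.15).

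**Figure D2:**
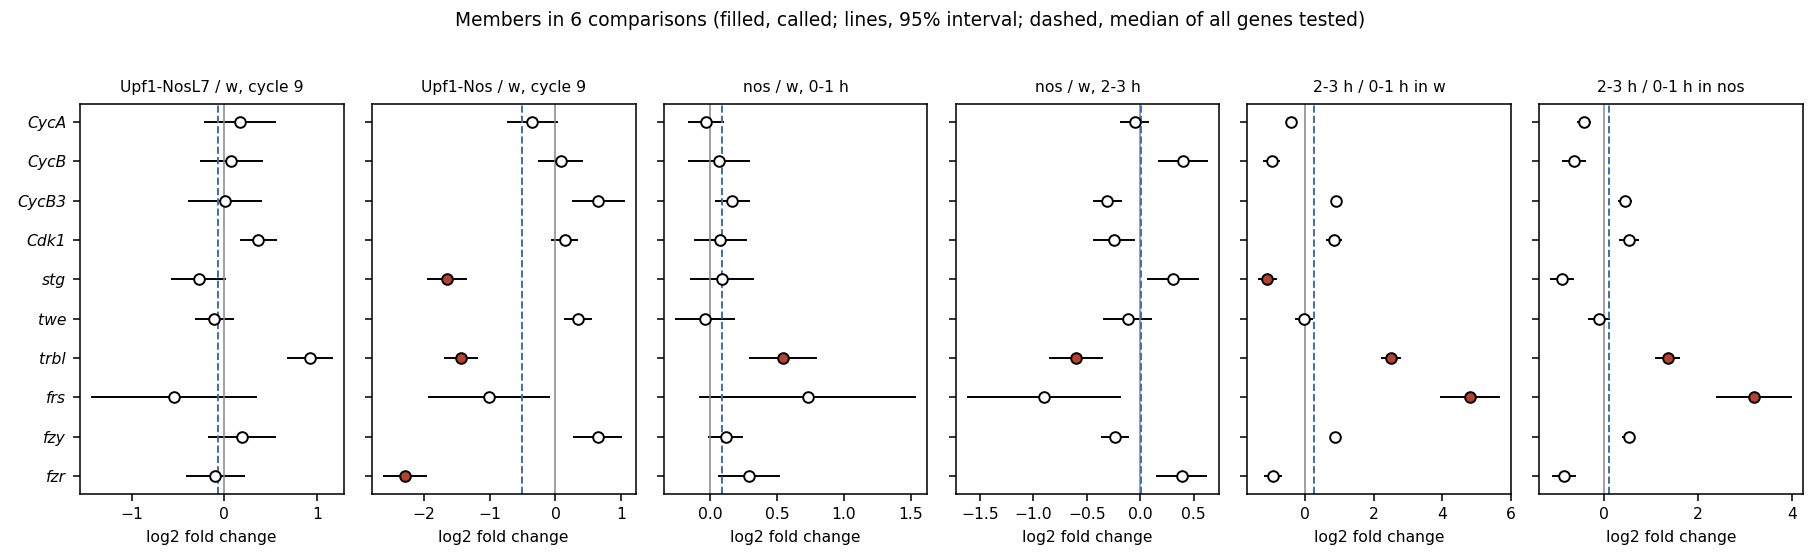
Log2 fold changes (x axes, with their own range in each panel) of the 10 genes (y axis) in 6 comparisons, with 95% intervals as lines, filled points for called genes, a solid line at 0 and a dashed line at the median of all genes tested. In Upf1-Nos the called genes are stg, trbl and fzr, in nos against w trbl lies on opposite sides of 0 at 0–1 h and 2–3 h, and over time trbl and frs rise.

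Ratios of TPM within a library do not depend on scaling between libraries. The ratio of stg to twe was 1.02–1.07 in wild type at cycle 9 and 0.216–0.289 in Upf1-Nos, a 4.03-fold decrease, whereas it was 0.824–1.03 in Upf1-NosL7. The ratio of fzy to fzr was 1.72–3.09 in wild type, 17.8–23.3 in Upf1-Nos and 2.88–3.28 in Upf1-NosL7, so that the Upf1-Nos ratio was 8.04-fold that of wild type. For both ratios the groups Upf1-Nos and wild type did not overlap (exact permutation test on log2 ratios, two-sided, p = 0.1, the smallest that 3 against 3 libraries can give, and 0.16 after adjustment over the 36 ratio comparisons made). The ratio of CycB to CycB3 was 7.56–8.66 in wild type and 5.15–5.90 in Upf1-Nos, again without overlap.

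**Figure D3:**
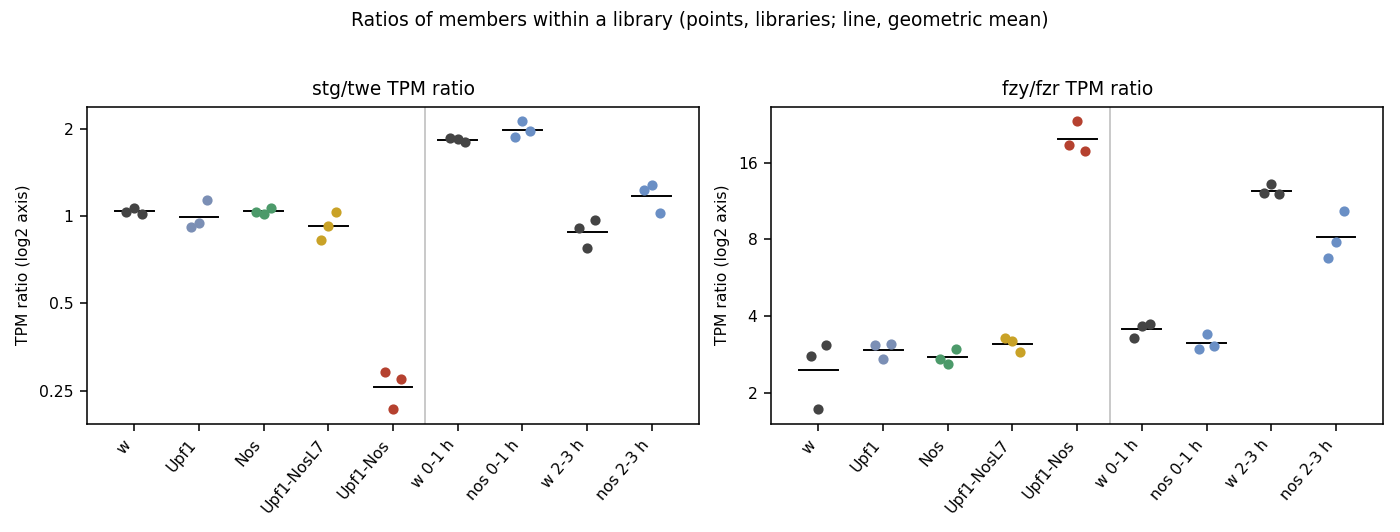
TPM ratios of stg to twe and of fzy to fzr (y axes, log2 scale) in each library (points), by group (x axes), with a line at the geometric mean of 3 libraries and a vertical line between the sorted and unsorted sets. Upf1-Nos has the lowest stg to twe ratios, at 0.216–0.289, and the highest fzy to fzr ratios, at 17.8–23.3.

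The deposited isoform values split the gene-level change of stg. The annotation gives stg-RA a 3′ UTR of 752 nt and stg-RB one of 435 nt, with the same coding length. The 2 isoforms also differ in their 5′ UTR, of 397 nt in stg-RA and 872 nt in stg-RB. stg-RA fell from 137, 141 and 186 TPM in wild type to 59.8, 38.7 and 51.1 TPM in Upf1-Nos (3.95-fold, log2 change -1.98, SE 0.14, adjusted p = 5.8e-08). stg-RB stood at 25.4, 27.4 and 47.0 TPM in wild type and 28.0, 17.8 and 25.1 TPM in Upf1-Nos. Its log2 difference was -0.82 (SE 0.20, adjusted p = 0.0037), under the 2-fold threshold. These log2 values carry the correction factors and TPM does not, so the overlap of the stg-RB values in TPM does not bear on the test. The share of stg-RB was 32.1% ± 0.729 (SD, n = 3) of the gene in Upf1-Nos and 17.4% ± 2.49 in wild type. No test of the difference between the isoforms was made. Of 20 isoforms of the 10 genes 18 were tested, and 4 were called. stg-RA, fzr-RA (log2 change -2.32) and trbl-RA (-1.48) fell, among all isoforms 33.0% of which fell. CycB-RC, at 3.47% of CycB in Upf1-Nos and 1.72% in wild type, rose (log2 change 1.07, adjusted p = 0.00044), where 2.80% of all isoforms rose. All CycB isoforms share a 3′ UTR length of 773 nt. Isoform values are estimates of how shared reads divide, and an isoform such as fzr-RB was listed at 0 in all wild-type and Upf1-Nos libraries.

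Between 0–1 h and 2–3 h, wild-type embryos pass through the MZT. frs and trbl mRNAs rose, stg mRNA fell, and twe mRNA stayed within its spread. Of the 10 genes 2 were called higher, where 17.1% of all genes were, and 1 lower, where 25.4% of all genes were. The median change of all genes was 0.25. frs went from 10.7, 13.2 and 9.05 normalised CPM at 0–1 h to 268, 324 and 337 at 2–3 h, a 28.2-fold rise (log2 change 4.82, SE 0.44, adjusted p = 8.8e-07). At 1294 ± 87.2 TPM it was then the most abundant mRNA of the 10. trbl went from 65.2, 59.0 and 53.6 normalised CPM to 301, 339.6 and 364, without overlap (5.64-fold, log2 change 2.496, SE 0.13, adjusted p = 1.6e-08).

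Of the Cdc25 mRNAs, stg fell from 628, 614 and 595 normalised CPM at 0–1 h to 340.0, 259 and 257 at 2–3 h (2.15-fold, log2 change -1.10, SE 0.12, adjusted p = 4.3e-06). With only genes tested in sorted embryos stg stood at -0.98 and was not called, and CycB3 was called instead at 1.04. twe was at 234, 233 and 238 normalised CPM and then at 263, 239 and 186. The later twe libraries enclosed the earlier ones (log2 difference -0.03, 95% interval -0.25 to 0.19, adjusted p = 0.78). The stg to twe ratio accordingly went from 1.80–1.86 to 0.776–0.967.

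CycB and fzr lay at the 2-fold threshold. CycB went from 3856, 3756 and 3584 normalised CPM to 2310.3, 1804 and 1549, with no overlap (1.98-fold lower, log2 difference -0.98, SE 0.12, adjusted p = 8.5e-06). fzr went from 132, 117 and 112 normalised CPM to 60.8, 59.5 and 66.7, also with no overlap (1.93-fold lower, log2 difference -0.95, SE 0.12, adjusted p = 1.2e-05). Leaving out replicate 3 at 0–1 h, or replicate 2 or 3 at 2–3 h, brought both past the threshold, with CycB at -1.03, -1.09 and -1.01 and fzr at -1.01, -1.05 and -1.16. CycB alone passed it without replicate 1 at 2–3 h (-1.17). CycA was at 2043, 2082 and 1921 normalised CPM and later at 1673, 1478 and 1391 (log2 difference -0.41, SE 0.06, adjusted p = 9.6e-05).

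CycB3, Cdk1 and fzy stood higher at 2–3 h in every library, each by less than 2-fold. CycB3 was at 705, 652 and 616 normalised CPM at 0–1 h and 1195, 1258 and 1265 at 2–3 h (log2 difference 0.91, SE 0.06, adjusted p = 1.1e-07). Cdk1 was at 201, 241 and 247 normalised CPM and then at 383, 438 and 415 (log2 difference 0.84, SE 0.10, adjusted p = 7.7e-06). fzy was at 323, 320.1 and 310.3 normalised CPM and then at 556, 583 and 601 (log2 difference 0.87, SE 0.06, adjusted p = 1.3e-07). The ratio of CycB to CycB3 fell from 5.40–5.81 to 1.25–1.95 and that of fzy to fzr went from 3.29–3.71 to 12.03–13.14, both without overlap between the groups. Embryos in these collections were not sorted, so change over time and the mix of ages within a collection cannot be told apart.

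**Figure D4:**
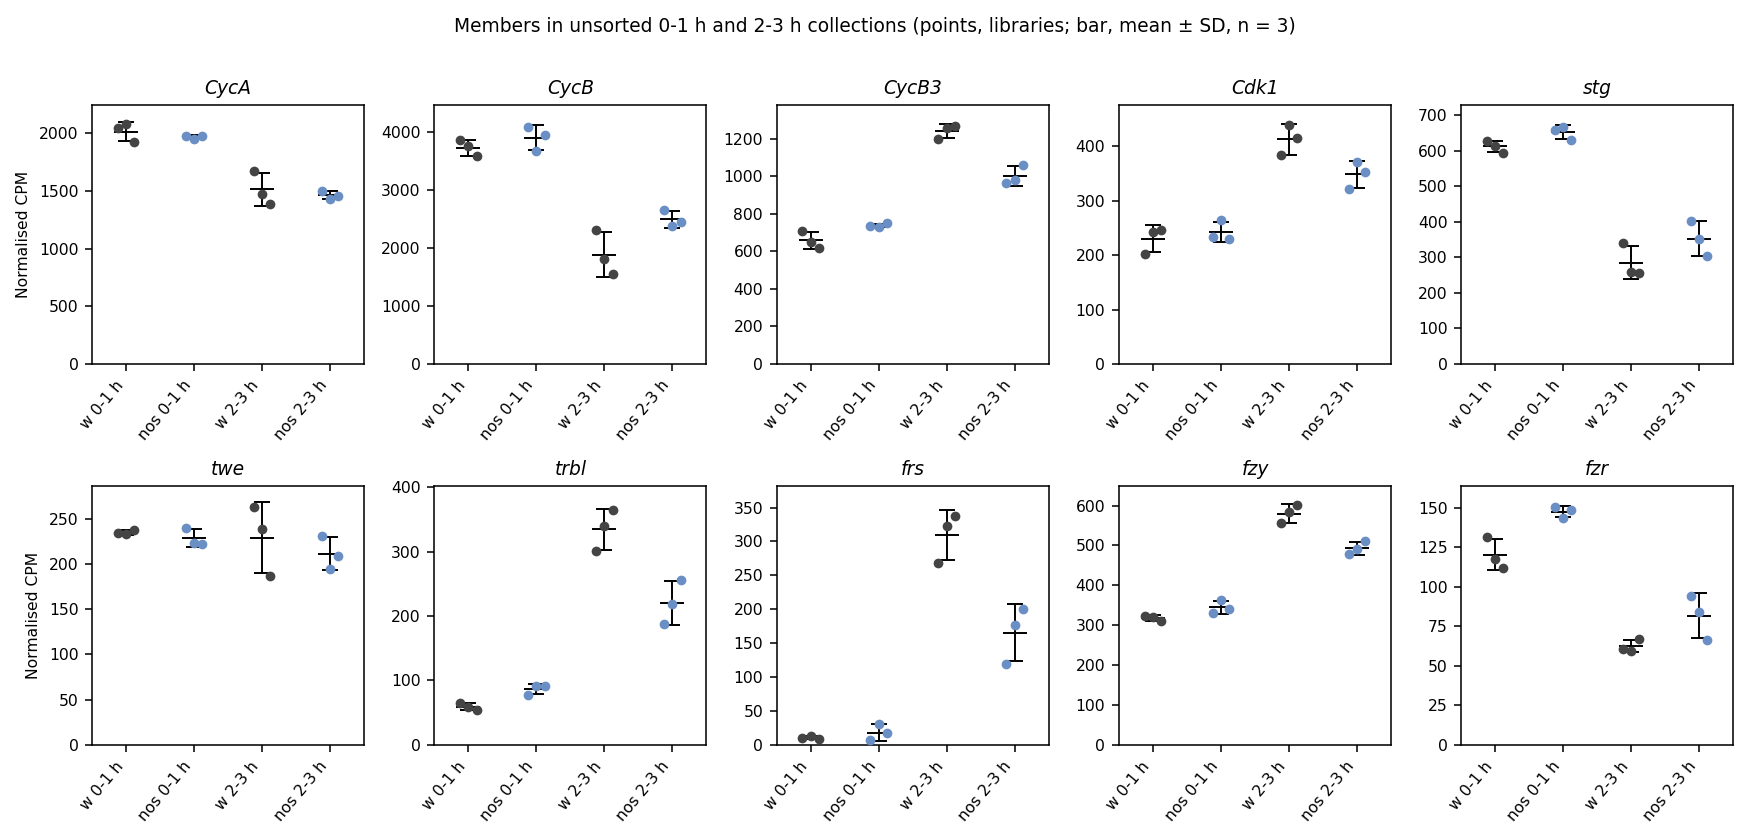
Normalised CPM (y axes, each from 0) of the 10 genes in unsorted 0–1 h and 2–3 h embryos of w and nos mothers (x axes), with 1 point per library and bars for the mean and SD of 3 libraries. trbl and frs are highest in w at 2–3 h, with the nos libraries between those and the 0–1 h libraries, and twe is at a like level in all 4 groups.

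Embryos of nos mothers were compared with w at both times to ask how the same mRNAs fare without Nos. trbl was higher without Nos at 0–1 h and lower at 2–3 h, and no cyclin gene was called at either time, though an isoform of CycB was. Here genes were called past a log2 value of 0.5 with an adjusted p under 0.05. At 0–1 h 1 of the 10 was called higher, where 10.9% of all genes were. This was trbl, at 77.1, 91.1 and 91.7 normalised CPM in nos and 65.2, 59.0 and 53.6 in w, without overlap (log2 change 0.55, SE 0.13, adjusted p = 0.0090). The value was 0.48 and no longer called without w replicate 3, and the call held in 9 of 14 alternatives, with values of 0.46–0.63. frs was uneven at this time, at 6.62, 30.7 and 16.9 normalised CPM in nos around 10.7, 13.2 and 9.05 in w (log2 difference 0.73, SE 0.41, adjusted p = 0.23). frs passed the test without nos replicate 1 (1.12) and stood at 0.12 without nos replicate 2. CycB was at 4082, 3665 and 3957 normalised CPM in nos at 0–1 h against 3856, 3756 and 3584 in w, with overlap (log2 difference 0.06, 95% interval -0.16 to 0.29).

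At 2–3 h 1 of the 10 was called lower in nos, where 8.80% of all genes were, and 0 higher by edgeR and DESeq2 (3 at an unadjusted p under 0.05), where 18.6% of all genes were. trbl was at 188, 218 and 256 normalised CPM in nos and 301, 339.6 and 364 in w (log2 change -0.60, SE 0.12, adjusted p = 0.0028). Without nos replicate 1 the value was -0.45 and without w replicate 3 it was -0.47, and the call was lost in both. frs was at 119, 177 and 200.5 normalised CPM in nos, below the 268, 324 and 337 of w in every library, but the test was not passed (log2 difference -0.90, SE 0.36, adjusted p = 0.062). The fit with the replicate number as a block gave frs a log2 change of -0.93 with an adjusted p of 0.018, which was called, as it was in 3 other alternatives (adjusted p = 0.010–0.036). In the alternatives that left out single libraries it was not called.

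Several further mRNAs had an adjusted p under 0.05 at 2–3 h below the log2 threshold of 0.5. CycB was at 2662, 2382 and 2442 normalised CPM in nos, above the 2310.3, 1804 and 1549 of w (log2 difference 0.40, SE 0.12, adjusted p = 0.015). It was called without w replicate 1, at 0.58. Of its isoforms CycB-RE was called, at 37.0, 39.6 and 42.1 TPM in nos and 24.5, 15.2 and 12.9 in w, without overlap (2.06-fold, log2 change 1.04, SE 0.18, adjusted p = 0.0029). CycB-RE made up 2.83–3.61% of CycB in these nos libraries. trbl-RA was the other isoform of the 10 genes called at 2–3 h (-0.60), which makes 2 of 19 tested, where 17.4% of all isoforms were called in either direction. fzr was at 94.4, 84.1 and 66.4 normalised CPM in nos and 60.8, 59.5 and 66.7 in w, with slight overlap (log2 difference 0.39, SE 0.12, adjusted p = 0.019), and reached 0.52 without nos replicate 3 and 0.51 without w replicate 3. CycB3 (log2 difference -0.31, SE 0.06, adjusted p = 0.0026) and fzy (-0.23, SE 0.06, adjusted p = 0.0099) were lower in nos, each without overlap of the libraries. For stg (0.30), Cdk1 (-0.24), twe (-0.12) and CycA (-0.05) the adjusted p was above 0.05.

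The rise of both antagonists with time was smaller in nos embryos. In nos, frs rose 9.07-fold (log2 change 3.18, SE 0.40, adjusted p = 3.2e-05) and trbl 2.55-fold (log2 change 1.35, SE 0.13, adjusted p = 2.9e-06) from 0–1 h to 2–3 h, 2 of the 10 where 12.1% of all genes rose. By edgeR and DESeq2 alike 0 of the 10 were called lower in nos over time, where 20.3% of all genes were. At an unadjusted p under 0.05 the number was 4, with stg at -0.89, fzr at -0.85, CycB at -0.64 and CycA at -0.43. CycB3 (0.44), Cdk1 (0.52) and fzy (0.52) were above their 0–1 h levels, and twe (-0.11) was not separated from it. These values share their 0–1 h or 2–3 h libraries with the comparisons of nos and w above. The test of the difference itself, the effect of nos at 2–3 h less that at 0–1 h, called 2 of the 10 lower, where 10.1% of all genes were (12.4% were higher). With DESeq2 6.80% were lower and 17.5% higher. They were trbl (log2 difference of effects -1.15, SE 0.18, adjusted p = 0.0018), called in all 19 alternatives, and frs (-1.63, SE 0.55, adjusted p = 0.040), called in 8 of 19. The frs value ranged from -2.02 to -1.02 as each of the 12 libraries was left out, and the call held in 3 of these, without nos replicate 1 at 0–1 h, nos replicate 3 at 2–3 h or w replicate 1 at 2–3 h. CycB3 (-0.47, adjusted p = 0.0039) and fzy (-0.35, adjusted p = 0.011) were below the threshold of 0.5, and CycB (0.34) had an adjusted p of 0.13. CycB3 was called without nos replicate 3 at 2–3 h (-0.52), w replicate 1 at 0–1 h (-0.53) or w replicate 1 at 2–3 h (-0.50), and CycB (0.51) without the last of these.

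The zygotic genes moved with trbl and frs. At 0–1 h 9 of the 14 were called higher in nos, where 10.9% of all genes were, and their sum was 439, 674 and 613 normalised CPM in nos replicates 1, 2 and 3 against 476, 424 and 403 in w. At 2–3 h 8 of the 14 were called lower in nos, where 8.80% of all genes were, and the sum was 2784, 3132 and 4088 in nos and 5341, 5716 and 5561 in w. The nos 0–1 h library with the highest frs, replicate 2, also had the highest zygotic sum, and replicate 1 was the lowest for both. In w at 0–1 h this did not hold, as frs was highest in replicate 2 (13.2) and the zygotic sum in replicate 1. Nor did late-embryo markers follow frs in nos at 0–1 h, at 30.5, 17.9 and 229 normalised CPM in replicates 1, 2 and 3. Late-embryo markers summed to 17.9–229 normalised CPM in nos and 43.7–203 in w at 0–1 h, and to 140.2–290.0 and 293–375 at 2–3 h. Some genes of the list respond to maternal patterning, as the paper states for Kr, gt and kni. The paper also describes a strongly changed fate map and gene expression in embryos without maternal Nos. The sum of these genes is therefore not a measure of age alone. Whether nos embryos differed from w in age within a collection was not tested, and genotype and age cannot be told apart here.

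Over the MZT in wild type 8 of the 19 isoforms tested were called, where 37.4% of all isoforms were called in either direction. CycB-RA (log2 change -1.09), CycB-RE (-1.01), fzr-RA (-1.19), stg-RA (-1.04) and stg-RB (-1.59) fell, as did 3422 of all 15528 isoforms. The other isoform of fzr, fzr-RB, was at 0–2.54 TPM at 0–1 h and 1.73–5.32 TPM at 2–3 h. The single isoforms of frs and trbl and CycB3-RB (1.27) rose, as did 2379 of all. Without w replicate 3 at 2–3 h 5 isoforms were called. CycB3-RB has the longer 3′ UTR, of 867 nt against 445 nt for CycB3-RA, and made up 33.4%, 35.2% and 39.3% of CycB3 at 0–1 h and 45.0%, 48.5% and 51.3% at 2–3 h. CycA showed the same order, with 933 nt in CycA-RC and 569 nt in CycA-RA. CycA-RC made up 9.32% ± 0.148 (SD, n = 3) at 0–1 h and 18.8% ± 3.00 at 2–3 h, its log2 difference was 0.52 (SE 0.08) and that of CycA-RA -0.63 (SE 0.09), both under the 2-fold threshold. For stg the longer 3′ UTR is that of stg-RA, which has the shorter 5′ UTR. The share of stg-RA went from 78.6% ± 0.434 to 84.5% ± 2.23. In each of these 3 genes the isoform with the longer 3′ UTR held a larger share at 2–3 h, with no overlap between the times. In twe this did not hold for both isoforms with a 3′ UTR of 811 nt, since twe-RC went from 7.91% ± 1.09 to 16.8% ± 3.99 and twe-RA from 12.2% ± 6.39 to 5.22% ± 4.79, against 348 nt in the main isoform twe-RB. At cycle 9 the wild-type shares of CycB3 varied widely (51.3% ± 13.1 for CycB3-RB), which makes isoform values of this gene uncertain there.

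**Figure D5:**
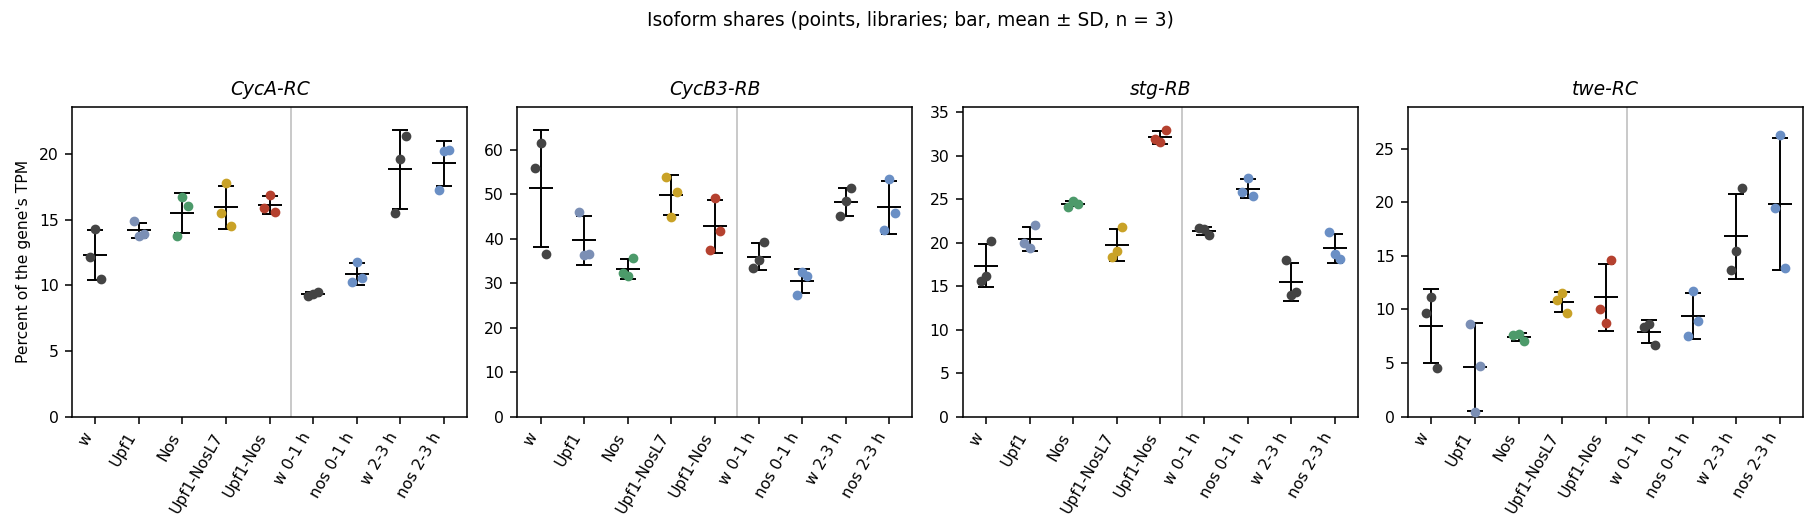
Share of the TPM of the gene (y axes, percent, from 0) held by CycA-RC, CycB3-RB, stg-RB and twe-RC in each group (x axes), with 1 point per library and bars for the mean and SD of 3 libraries. stg-RB is highest in Upf1-Nos at 32.1%, and CycA-RC, CycB3-RB and twe-RC hold more at 2–3 h than at 0–1 h in w.

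Other genes that act on Cdk1 or form the APC/C were counted from a fixed list of 28, all of them tested. It held 13 APC/C genes (shtd, mr, Cdc27, Cdc16, Cdc23, APC4, ida, APC7, APC10, lmg, vih, cort and Rca1) and 15 genes of Cdk1 control (wee, Myt1, Cks30A, Cks85A, gwl, endos, png, plu, gnu, mts, tws, Pp2A-29B, Cdk7, CycH and Mat1). In Upf1-Nos, where 39.3% of all genes fell and 1.05% rose, 8 of the 13 APC/C genes and 9 of the 15 Cdk1 control genes fell and 0 rose (0 by DESeq2, 4 at an unadjusted p under 0.05), with a median log2 change of -1.52 over the 28 against -0.51 over all genes. The lowest were cort, which encodes a meiotic activator of the APC/C (-5.19), Myt1, an inhibitory kinase of Cdk1 (-4.39), and png, the catalytic subunit of the PNG kinase that governs translation of cyclin mRNAs at egg activation (-4.02). fzr and stg thus fell along with 17 of these 28 genes. In Nos and in Upf1-NosL7 0 of the 28 were called by edgeR or DESeq2, against 8 and 2 at an unadjusted p under 0.05. In Upf1 edgeR called shtd alone, at the threshold (log2 change 1.00), and DESeq2 called 0.

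Over the MZT in wild type, where 25.4% of all genes fell and 17.1% rose, 16 of the 28 fell and 0 rose (0 by DESeq2, 5 at an unadjusted p under 0.05), at a median log2 change of -1.12 where that of all genes was 0.25. cort (-5.37), APC7 (-4.53) and png (-4.10) had the largest decreases. In nos embryos 12 of the 28 fell over the same time, as did 20.3% of all genes. At 2–3 h 9 of the 28 were higher in nos than in w (18.6% of all genes) and 1 lower (8.80% of all genes), at a median log2 difference of 0.25 where that of all genes was 0.01, while at 0–1 h edgeR called 0 and DESeq2 called 1, against 4 at an unadjusted p under 0.05. APC7 (log2 change 1.89), gnu (1.77), which encodes another subunit of the PNG kinase, and cort (1.37) stood highest, and Cdc16 (-0.57) was the lower one. fzr and CycB, with log2 differences of 0.39 and 0.40, had the direction of most of these genes, and trbl (-0.60) had the opposite direction.

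Ordered by mean normalised CPM, stg, trbl and fzr each had Upf1-Nos below all other sorted groups, and the group next above it did not overlap with it. trbl ran from Upf1-NosL7 (85.5) and Nos (81.2), which overlapped, through Upf1 (58.7) and wild type (45.0) to Upf1-Nos (16.6). For CycB each sorted group overlapped with its neighbour in the order, from 4463 in Upf1 to 3551 in wild type. In the unsorted set CycB3, trbl and fzy had 4 separate groups, with w at 2–3 h highest, then nos at 2–3 h, nos at 0–1 h and w at 0–1 h, each above the next. The share of all genes with groups this separate was not counted in either set, so these orders do not set the genes apart. The 4 groups of twe overlapped throughout.

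The pattern of each mRNA across the 27 libraries was centred within the sorted and the unsorted set. It was set beside that of all 6928 genes with a mean of at least 10 TPM in 1 group or more. This is a description over libraries that share groups. A gene could enter through its highest group alone, as did CG8353, with group means of 0.447 to 12.4 TPM. The closest to fzr were Xpd (Pearson r 0.994) and D12 (0.991), and the closest to stg were HIPP1 (0.992) and CG7369 (0.990). CycB3 was nearest to Rab3-GAP (0.987) and Cbp80 (0.986), fzy to wls (0.975) and Pgm2a (0.972), and CycB to CG8841 (0.973) and CG10383 (0.972). For frs the nearest were CG34214 (0.986) and CG43725 (0.978), for twe B4 (0.960) and Tbc1d15-17 (0.956), for Cdk1 GstO2 (0.959) and CG7275 (0.954), for CycA CG3679 (0.957) and fdl (0.941), and for trbl CG8353 (0.909) and CG9775 (0.901). Among the 10 themselves CycB3 and fzy (0.96), stg and fzr (0.95), CycA and CycB (0.87) and trbl and frs (0.78) were most alike, and Cdk1 and stg most opposed (-0.81). All these correlations are on log2 TPM, which lacks the correction of Upf1-Nos libraries. Cdk1 was at 750 TPM in Upf1-Nos and 547 TPM in wild type at cycle 9, but at 491 and 446 normalised CPM.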

How the data were processed

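Poly(A)-selected RNA of 27 embryo samples was sequenced as paired reads. The authors trimmed adapters, removed short, mitochondrial, tRNA and rRNA reads, aligned with STAR 2.5.3a to BDGP6 and quantified with RSEM 1.3.0, per the study's methods and submitters' processing notes. They deposited expected counts and TPM per gene and per isoform, separately for sorted and unsorted embryos, and no value was tested across the sets. Expected counts are estimates, because RSEM divides reads shared by isoforms or overlapping genes, and the authors' TPM divides by transcript length. Coordinates and 3′ UTR lengths are those of the BDGP6.54 annotation, in which 17587 of the 17714 gene identifiers had a symbol.

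Expected counts were rounded and tested with edgeR 4.0.16 in R 4.3.3 (quasi-likelihood, legacy form, as in edgeR 3.40.2, the authors' version) after filterByExpr with a minimum count of 30 and a minimum total of 30, in 1 fit over the 15 sorted and 1 over the 12 unsorted libraries. TMM factors were used, and Upf1-Nos libraries took factors from 20 genes (21 isoforms), as the study's methods describe. P-values were adjusted by Benjamini-Hochberg over all genes. Genes called in Upf1 (276) were left out of the background for Upf1-Nos and Upf1-NosL7 against w. Normalised CPM are counts scaled by library size and factor. The tests were checked on simulated counts with known changes.

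The assigned reads per library (14022867 to 22002022 sorted, 15253023 to 21661077 unsorted) set the counting precision, and replicate pairs differed by chi-square values of 6.54–132 per degree of freedom, so none was a duplicate. The highest values, 130.5 and 132.2, were those of w replicate 3 at cycle 9 with replicates 1 and 2. The value between replicates 1 and 2 was 26.4. Same-numbered nos and w libraries deviated together in part (correlations 0.151, 0.488 and 0.473 at 0–1 h and 0.482, 0.211 and 0.117 at 2–3 h). The highest correlations with a w library of another number were 0.312, 0.0416 and -0.12 at 0–1 h and -0.302, 0.0997 and 0.0728 at 2–3 h. Replicate 1 at 0–1 h was thus closer to another w library. In the sorted set same-numbered Upf1 and w libraries had 0.631, 0.0681 and 0.664, and Nos and w had -0.00105, -0.206 and -0.269. The labels state no pairing. All 10 genes are named, the label checks nos and Upf1, up to 3 list genes a direction with the largest fold in the main comparisons, and 2 nearest genes each. Members and lists were chosen with earlier results of these data known. Alternatives were DESeq2 1.42.0, RLE factors, no filter, the edgeR default filter, the newer quasi-likelihood form, no correction factors, a replicate block, only the groups compared, only genes tested in sorted embryos, and each library left out. No sequences were printed.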

Additional observations from a re-analysis of the deposited data

Results flagged for a closer look

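The effect of nos on trbl differed between the times by -1.15 on the log2 scale, from 0.55 at 0–1 h to -0.60 at 2–3 h (edgeR interaction test, SE 0.18, adjusted p = 0.0018). All 3 nos libraries were above all w libraries at 0–1 h and below them at 2–3 h. The effect on frs differed by -1.63 (SE 0.55, adjusted p = 0.040), from 0.73 to -0.90, with nos libraries on both sides of w at 0–1 h and below w in 3 of 3 at 2–3 h. The same difference was called lower for 13 of 14 zygotic genes, whose median was -1.61 where that of all genes was -0.10. Some of these genes respond to maternal patterning, and the part of embryo age or patterning in both results was not tested.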

How the results depend on the processing

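All 16 calls of single genes kept their direction in every alternative, and 10 were called in each of them. The count of 3 over time in w stayed at 3 with only genes tested in sorted embryos, where CycB3 replaced stg. The number of the 10 genes called over time in w was 3 and became 5 with DESeq2, no filter, the edgeR default filter, RLE factors or only the groups compared (3–5 with a library left out), as CycB and fzr crossed the 2-fold threshold. Without correction factors Upf1-Nos against Upf1-NosL7 gave 5 for 3, and the isoforms of Upf1-Nos against w gave 7 for 4 (3–5 with a library left out). Upf1-NosL7 against w gave 1 for 0 with only the groups compared. For nos against w at 0–1 h, DESeq2, RLE factors, only genes tested in sorted embryos and only the groups compared gave 0 for 1, and leaving out libraries gave 0–2. At 2–3 h the newer quasi-likelihood form, only genes tested in sorted embryos, only the groups compared and the replicate block gave 2 for 1, and leaving out libraries gave 0–2. The replicate block changed no other count of calls among the 10 genes. The difference of the nos effect gave 1 for 2 with DESeq2 or RLE factors and 1–4 with a library left out, and isoforms over time gave 5–9 for 8.

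Of 100 values 21 turned direction somewhere, none of them a called one, and 1 turned value had an adjusted p under 0.05. That was Cdk1 in Upf1-Nos against Upf1-NosL7 without correction factors, at 0.36 (adjusted p = 0.011), where CycA (0.037) and frs (0.090) also turned, and CycA against w was 0.21. DESeq2 and RLE factors gave -0.015 for Cdk1 in Upf1, -0.026 and -0.031 for CycB between the chimeras, -0.013 for CycB in nos at 0–1 h, 0.010 for CycA in nos at 2–3 h, and 0.12 for CycA and 0.061 for twe in the difference, in which both moved the median of all genes by 0.14. No filter gave -0.024 for Cdk1 in Upf1 and -0.071 for CycB between the chimeras, the replicate block -0.0045 for the latter. Only the groups compared gave -0.051 for Cdk1 in Upf1, and -0.024 for CycB and -0.013 for Cdk1 in nos at 0–1 h. Only genes tested in sorted embryos gave -0.0078 for CycB in nos at 0–1 h, 0.039 for CycA in the difference, and 0.086 in w and 0.068 in nos for twe over time.

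With a library left out, the values that turned ranged from -0.094 to 0.061 (Cdk1) and -0.31 to 0.30 (frs) in Upf1, from -0.033 to 0.34 (CycA) in Nos, from -0.14 to 0.33 (CycB) in Upf1-Nos, from -0.047 to 0.47 (CycA), -0.10 to 0.31 (CycB), -0.19 to 0.30 (CycB3), -0.022 to 0.46 (fzy) and -0.16 to 0.034 (twe) in Upf1-NosL7, and from -0.14 to 0.11 (CycB) between the chimeras. In the unsorted set they ranged from -0.0035 to 0.13 (Cdk1, nos at 0–1 h), -0.043 to 0.031 (CycA, nos at 2–3 h), and -0.042 to 0.11 (CycA) and -0.10 to 0.092 (twe) in the difference. The cause of these shifts was not tested. Depth limits frs in sorted embryos, at 15–302 expected counts a library.

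Among all genes, the share of lower against higher calls moved by over 10 percentage points in the cases below. For nos at 0–1 h (6.74% lower, 10.9% higher) it was 5.50% and 4.48% with only genes tested in sorted embryos, 6.04% and 6.0% with only the groups compared, and 8.87% and 9.16% without nos replicate 3. For the change over time in nos (20.3% and 12.1%) it was 21.6% and 4.16% with only genes tested in sorted embryos and 20.2% and 18.3% without nos replicate 3 at 0–1 h. For the difference (10.1% and 12.4%) it was 6.80% and 17.5% with DESeq2, 5.75% and 15.8% with RLE factors, 6.03% and 19.1% with only genes tested in sorted embryos, and 3.64–4.65% and 12.7–16.9% without nos replicate 1, w replicate 2 or w replicate 3 at 2–3 h. Without correction factors the chimeras gave 29.4% and 12.1% (37.8% and 4.07% with them), and Upf1-Nos against w the values given above. Upf1-NosL7 against w (1.75% and 0.988%) gave 1.70% and 1.73% with no filter, 2.22% and 1.91% with the default filter, 1.08% and 1.00% with the replicate block, and 0.499–4.87% and 0.968–1.25% as each library was left out. Upf1 against w (2.30% and 1.72%) gave 2.60% and 3.45% without Upf1 replicate 1 and 2.98% and 4.22% without w replicate 3.

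Counts of all genes called moved by over 1.5 times from 384 to 678 (Nos, no filter), from 180 to 389 (Upf1-NosL7, no filter) and 287 (default filter), from 1493 to 679 (nos at 0–1 h, only genes tested in sorted embryos) and 895 (only the groups compared), and from 2737 to 1750 (over time in nos, only genes tested in sorted embryos). With a library left out they moved so for Upf1 (276, to 417 without Upf1 replicate 1 and 496 without w replicate 3) and for Upf1-NosL7 (to 97–405).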
